A study of Mus musculus with 6 samples.

Results

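Collagens are the main structural proteins of the extracellular matrix. Each is assembled from polypeptide chains that wind around one another into a helix, and every chain is encoded by its own gene. Fibrillar collagens form the banded fibrils of connective tissue, type IV collagens form the sheet-like network of basement membranes, and the fibril-associated collagens with interrupted helices (FACITs) decorate the surface of fibrils. The remaining types include the beaded filaments of type VI, the anchoring fibrils of type VII, short-chain networks, membrane-spanning collagens and the multiplexins. Soft-tissue sarcomas are mesenchymal tumours, and the cells they arise among are major producers of this matrix.

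The collagen chain genes were chosen by symbol alone, Col followed by a type number, the letter a and a chain number. This gave 44 genes among the 55471 in the deposited table: 11 fibrillar, 6 basement membrane (type IV), 9 FACIT and 18 of other classes. Their transcripts were counted by RNA sequencing in a cultured mouse undifferentiated pleomorphic sarcoma (UPS) line, labelled metastatic. The groups were 3 libraries of Setd1a knockout cells, whose titles carry a numeric tag, and 3 libraries of wild-type control cells, whose titles carry the tag AAV2. The labels do not say what the tags mean, whether the knockout cells were 1 clone, or whether the libraries of a group came from separate cultures. Whatever the tags mark cannot be told apart from the knockout, and p-values here reflect only how these libraries vary, which may be technical.

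Setd1a encodes the catalytic subunit of a COMPASS complex that methylates histone H3 at promoters, and its transcript was still counted in the knockout. It had 53.2, 68.7 and 56.3 CPM (counts relative to the scaled library size) in knockout libraries 1, 2 and 3, against 71.0, 75.3 and 73.5 CPM in control libraries 1, 2 and 3. The knockout libraries were all lower than the controls without overlap, and the adjusted p was 0.426 without pairing and 0.0913 with libraries paired by replicate number (edgeR). Gene-level counts do not show whether the coding sequence was disrupted, and 51.8% of the gene's exonic bases are shared with Gm49388. Library totals lay between 17749533 and 18272622 counts. All 8 mesenchymal markers were measured, led by the intermediate filament gene Vim at 5429 ± 347 CPM in knockout and 6146 ± 467 CPM in control libraries (SD, n = 3 each). Of the markers of other cells, only 1 of 8 chondrocyte, 1 of 8 endothelial and 1 of 8 macrophage genes passed the low-count filter, with 3 of 8 epithelial and 4 of 7 osteoblast genes. Mitochondrial transcripts took 3.74%, 3.48% and 3.91% of the counts in the knockout libraries and 3.03%, 2.87% and 2.50% in the controls, and their part in the results was not tested. In bulk libraries, fewer cells of a type and less RNA per cell cannot be told apart.

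The share of collagen transcripts differed between the groups by less than the spread between libraries. They made up 0.174% ± 0.0222 of the counts in knockout and 0.173% ± 0.00472 in control libraries (SD, n = 3 each). By library the share was 0.199%, 0.166% and 0.156% in knockout libraries 1, 2 and 3, against 0.174%, 0.178% and 0.168% in control libraries 1, 2 and 3. Knockout library 1 held the highest share of the 6, and knockout libraries 2 and 3 lay below all controls. The wider spread lay within the knockout group.

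Basement membrane and fibrillar chains supplied most of these transcripts. Fibrillar genes held 41.9%, 33.3% and 39.8% of the collagen counts in the knockout libraries and 46.5%, 36.8% and 41.6% in the controls. Type IV genes held 37.1%, 46.7% and 41.0% in the knockout libraries and 35.5%, 45.4% and 42.3% in the controls. In both groups library 1 was the richest in fibrillar and the poorest in type IV counts, and the groups overlapped. FACIT genes held 4.70%, 4.86% and 5.03% in the knockout libraries, against 4.47%, 4.49% and 4.07% in the controls. The other classes held 16.3%, 15.2% and 14.1% in the knockout libraries, against 13.5%, 13.3% and 12.0% in the controls. For the FACIT genes and for the other classes alike, no knockout library overlapped a control library.

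**Figure D1:**
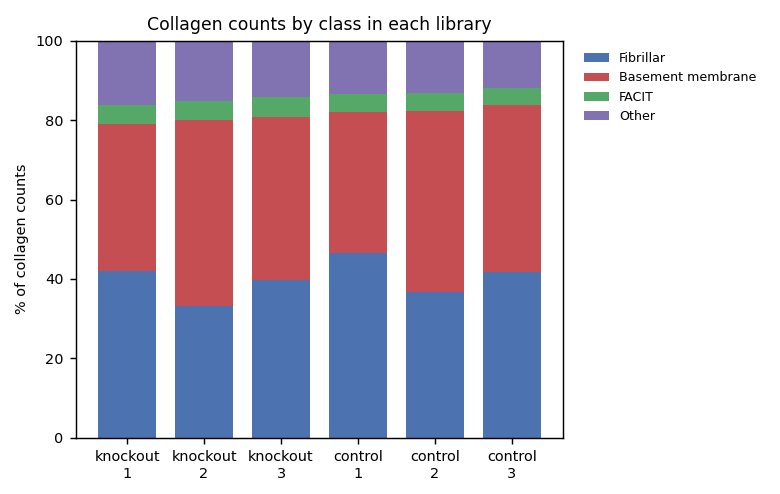
Share of collagen counts (%, vertical axis) held by fibrillar, basement membrane, FACIT and other collagen genes in each of the 6 libraries, knockout libraries at the left. The other classes held 14.1% to 16.3% in the knockout and 12.0% to 13.5% in the control libraries. FACIT genes held 4.70% to 5.03% in the knockout and 4.07% to 4.49% in the control libraries.

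Of the 44 genes, 24 had enough counts to be tested: all 11 fibrillar genes, 3 type IV, 4 FACIT and 6 of the other classes. The other 20 were at or near the floor. Col6a6 and Col26a1 had 0 counts in every library. Through counting error, an expected count of up to about 3 in a library could still give 0. That is 0.169 CPM in the shallowest library without scaling, and is an approximate limit, not a maximum. A further 10 held 10 counts or fewer in all libraries together, and the highest count of any untested gene in 1 library was 14, for Col17a1, which encodes the membrane-spanning collagen of epithelial hemidesmosomes. Among the untested genes were the type IV chains of specialised basement membranes, Col4a3, Col4a4 and Col4a6, and the hypertrophic cartilage chain Col10a1.

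Levels of different genes were compared as RPKM, CPM per kilobase of exonic length. Col4a1, which encodes the more abundant chain of the ubiquitous basement membrane collagen, had the highest level, at 59.1 ± 7.01 RPKM in knockout and 57.8 ± 8.23 RPKM in control libraries (SD, n = 3 each). Its partner Col4a2 followed at 39.0 ± 4.14 RPKM in knockout and 41.1 ± 6.17 RPKM in control libraries, and then the reticular fibril chain Col3a1 at 23.5 ± 5.31 and 30.2 ± 2.76 RPKM. Col1a2 averaged 14.9 RPKM in the knockout and 17.1 RPKM in the controls, and Col1a1, its partner in type I collagen, 5.43 and 5.70 RPKM. At the low end of the tested genes stood Col27a1, a fibrillar chain of cartilage, at 0.0608 RPKM in the knockout and 0.0700 RPKM in the controls. With the longest annotated transcript as the gene length, the same 4 genes led, with Col3a1 in place of Col4a2 as second.

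**Figure D2:**
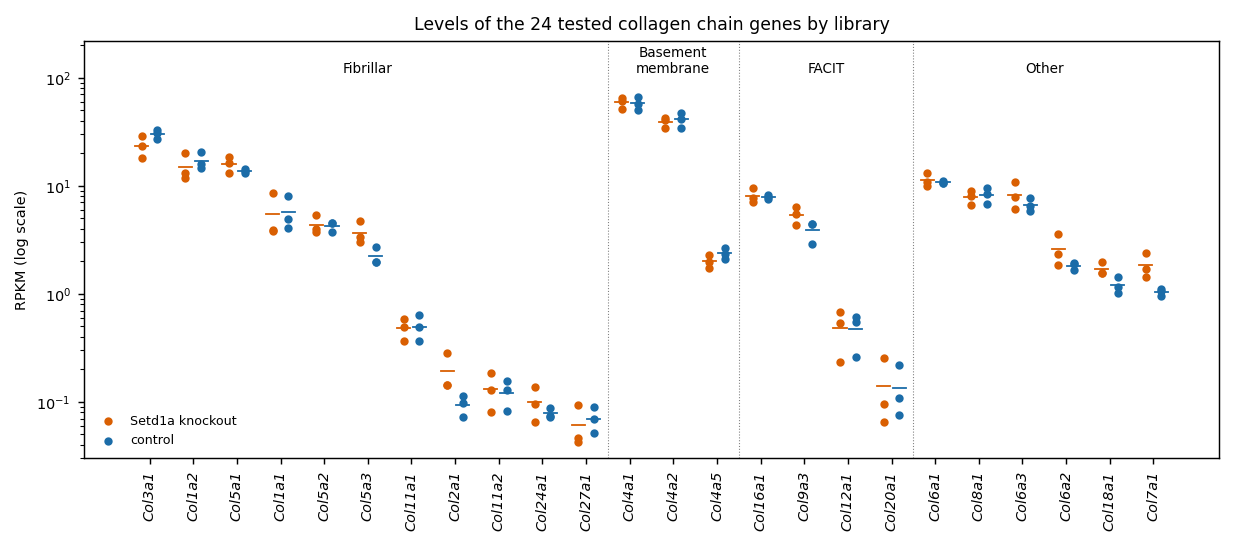
RPKM (log axis) of the 24 tested collagen chain genes, grouped by class, with the 3 knockout libraries (orange, left) and the 3 control libraries (blue, right) as points and their means as bars. Col4a1 has the highest level in both groups, and for Col5a3, Col7a1, Col18a1 and Col2a1 every knockout point lies above every control point.

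The question was which of these genes differed between the knockout and control libraries. The planned test was edgeR without pairing, and it called 0 collagen genes. Its main variation was the edgeR quasi-likelihood test that compared libraries of the same replicate number (the paired test). That pairing was taken from correlations between these libraries and not from the labels. In the paired test Col5a3 and Col7a1 were called higher in the knockout and no tested collagen gene was called lower. These 2 of 24 genes stand against 1.43% of all 13044 tested genes called higher and 0.851% called lower, 2.28% in either direction, in that test at an adjusted p under 0.05. The test without pairing called 0 collagen genes, against 0% of all genes in either direction, with 6 collagen genes higher and 1 lower before adjustment (p under 0.05), beside 5.5% and 4.51% of all genes. Before adjustment the paired test had 8 collagen genes higher and 3 lower, beside 9.94% and 9.62%. Without pairing, the median log2 change of the 24 genes was 0.05, beside 0.00066 for all tested genes, and 16 had a change above 0 and 8 below. Both calls were lost without pair 3, where the paired test called 0 collagen genes and 0 genes of any kind. That loss was therefore not particular to these 2 genes. DESeq2 without pairing called the same 2 genes, and the calls also remained in the paired test without pair 1 and without pair 2. Without pairing, limma-voom and edgeR with DESeq2 size factors or a minimum mean of 5 CPM called 0 collagen genes. So did edgeR with any 1 library left out. With no filter on low counts, edgeR without pairing called only Col7a1. Adjusted p-values below are Benjamini-Hochberg values over all genes tested, and changes are log2 values of knockout over control with their SE.

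**Figure D3:**
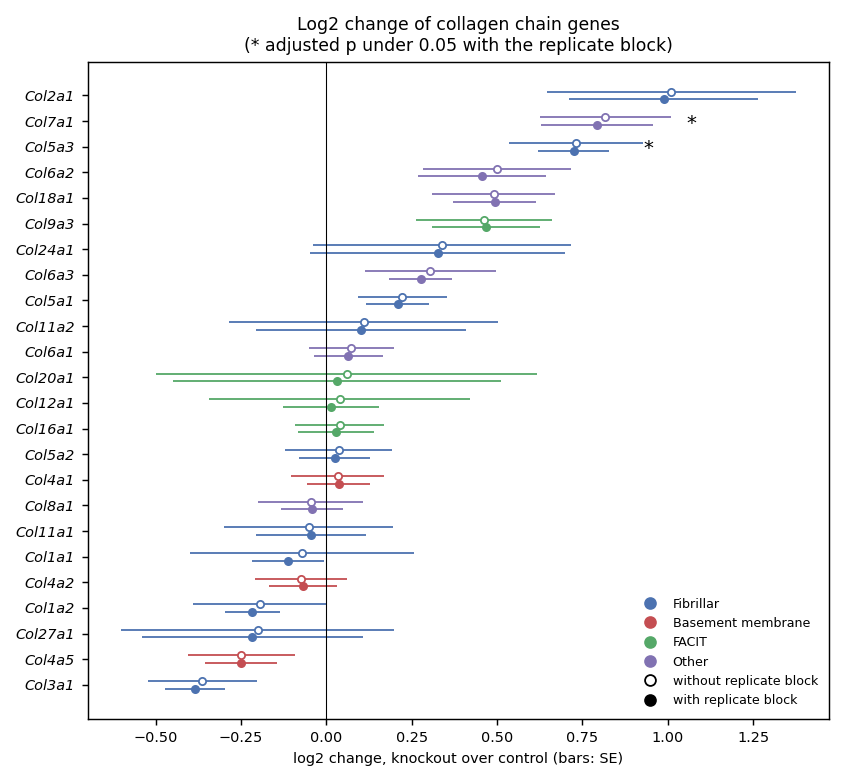
Log2 change of knockout over control (horizontal axis) with its SE for the 24 tested collagen chain genes, from the edgeR test without (open) and with (filled) the replicate number as a block, coloured by class. The marked genes Col5a3 and Col7a1 pass an adjusted p of 0.05 in the paired test, and the lowest change is that of Col3a1.

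Col5a3 (ENSMUSG00000004098, chromosome 9, 20770050 to 20815067, minus strand of GRCm38) encodes the third chain of type V collagen, a fibrillar type that is laid down inside type I fibrils and limits their width. It had 23.0, 20.5 and 31.8 CPM in knockout libraries 1, 2 and 3, against 13.4, 13.3 and 18.6 CPM in control libraries 1, 2 and 3. Library 3 was the highest of each group, and the lowest knockout library lay above the highest control library. The change was 0.72 ± 0.10 with an adjusted p of 0.0203 in the paired edgeR test, and 0.73 ± 0.20 with an adjusted p of 0.246 without pairing. Over the alternatives to the test without pairing the adjusted p ran from 0.0203 to 0.570. The log2 ratio was 0.77, 0.62 and 0.77 in pairs 1, 2 and 3.

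The other chains of type V collagen, Col5a1 and Col5a2, had higher levels and were not called. Col5a1 had 158, 138 and 111 CPM in the knockout libraries, against 115, 122 and 112 CPM in the controls. Its change was 0.21 ± 0.09 with an adjusted p of 0.248 in the paired edgeR test. Col5a2 averaged 41.8 ± 8.58 CPM in knockout and 40.8 ± 4.50 CPM in control libraries (SD, n = 3 each), and the groups overlapped. Per kilobase, Col5a1 was at 16.0 RPKM in the knockout and 13.7 RPKM in the controls, and Col5a3 at 3.69 and 2.22 RPKM.

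Col7a1 (ENSMUSG00000025650, chromosome 9, 108953586 to 108984875, plus strand) encodes the anchoring fibril collagen, which ties basement membranes to the fibrils beneath them. It had 24.3, 17.5 and 14.6 CPM in knockout libraries 1, 2 and 3, against 9.74, 11.4 and 10.8 CPM in control libraries 1, 2 and 3. All knockout libraries lay above all control libraries, and knockout library 1 was the highest. The change was 0.79 ± 0.16 with an adjusted p of 0.0422 in the paired edgeR test, and 0.82 ± 0.19 with an adjusted p of 0.195 without pairing. Over the alternatives to the test without pairing the adjusted p ran from 0.0205 to 0.542. By pair, the log2 ratios were 1.31, 0.61 and 0.43.

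In all, the groups did not overlap for 4 of the 24 genes, all higher in the knockout, beside 7.49% of all tested genes higher and 7.77% lower. The 2 beyond Col5a3 and Col7a1 were Col2a1 and Col18a1, neither of which passed the adjusted threshold. Col2a1, the main fibrillar chain of cartilage, had 2.64, 1.33 and 1.32 CPM in the knockout libraries, against 1.05, 0.893 and 0.673 CPM in the controls. Its change of 0.99 ± 0.28 was numerically the largest of the 24 and rested on 143 counts in all libraries together. The adjusted p was 0.0904 in the paired edgeR test and 0.393 without pairing. Beside it, the chondrocyte transcription factor gene Sox9 averaged 47.7 ± 7.69 CPM in knockout and 39.4 ± 0.806 CPM in control libraries (SD, n = 3 each). The Sox9 groups overlapped and the gene was not called (adjusted p = 0.198 in the paired edgeR test and 0.523 without pairing). The chondrocyte markers Matn1, Cnmd and Snorc were at 0 in every library. The 8 markers summed to 39.8 to 55.2 CPM in the knockout and 39.3 to 41.4 CPM in the controls, nearly all of it Sox9. Acan, Matn3, Hapln1 and Chad averaged 0.423, 0.147, 0.0920 and 0.0185 CPM in the knockout, against 0.463, 0.186, 0.223 and 0 CPM in the controls. The part of the chondrocyte markers in the Col2a1 difference was not tested. Col18a1 encodes the multiplexin from which the fragment endostatin is released. It had 10.9, 13.9 and 10.9 CPM in the knockout libraries, against 7.19, 10.0 and 8.18 CPM in the controls. The change was 0.49 ± 0.12 with an adjusted p of 0.0663 in the paired edgeR test, and the adjusted p was 0.402 without pairing.

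Among the abundant fibrillar chains, Col3a1 had the lowest change. It had 282, 178 and 231 CPM in knockout libraries 1, 2 and 3, against 319, 267 and 303 CPM in control libraries 1, 2 and 3. Each knockout library lay below the control of the same number, while knockout library 1 lay above control library 2, so the groups overlapped. The change was -0.38 ± 0.09 with an adjusted p of 0.0561 in the paired edgeR test and -0.36 ± 0.16 with an adjusted p of 0.483 without pairing. With DESeq2 in place of edgeR the paired test called it lower (adjusted p = 0.00951), as did the paired edgeR test without pair 1 (adjusted p = 0.00122). Leaving out pair 1 raised the calls in general, with 507 genes called higher against 187 with all pairs. Over the alternatives to the paired test the adjusted p ran from 0.00122 to 0.483.

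The type I chains, which form the commonest fibril of bone, skin and tendon, were not called. Col1a2 had 248, 145 and 164 CPM in the knockout libraries, against 256, 183 and 199 CPM in the controls, and was lower in the knockout in each pair by 0.05, 0.33 and 0.28 on the log2 scale (adjusted p = 0.180 in the paired edgeR test). Col1a1 had 56.3, 25.1 and 25.5 CPM in the knockout libraries and 53.2, 26.8 and 32.2 CPM in the controls. For Col1a1 the difference between libraries of 1 group was far larger than that between the groups, and library 1 was the highest in both. In all 6 libraries Col1a2 exceeded Col1a1 per length, by 2.32, 3.06 and 3.41 times in the knockout libraries and 2.54, 3.60 and 3.26 times in the controls. With the longest transcript as gene length these ratios were larger, 6.15 ± 1.16 in knockout and 6.58 ± 1.14 in control libraries (SD, n = 3 each). Col1a2 has 12426 annotated exonic bases and a longest transcript of 5348 bases, and Col1a1 has 6563 and 5930.

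The remaining fibrillar genes were low and not called. Col11a1, whose chain nucleates thin cartilage fibrils, averaged 6.09 ± 1.39 CPM in knockout and 6.31 ± 1.70 CPM in control libraries (SD, n = 3 each). Col11a2, Col24a1 and Col27a1 held under 1 CPM in the mean of either group. The adjusted p-values of these last 3 genes in the paired edgeR test lay between 0.702 and 0.902.

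The promoters of the called genes and of Col3a1 are shown because they are the members whose differences the results turn on. The sequences are the 250 bases before the RefSeq start of each gene (GRCm38.p6), 5′ to 3′ on the gene's strand. Capitals mark matches, on either strand, to the CCAAT box (CCAAT or ATTGG), the GC box (GGGCGG or CCGCCC) and the TATA box (TATAAA or TTTATA).
Col5a3 (chr9:20815068-20815317, minus strand): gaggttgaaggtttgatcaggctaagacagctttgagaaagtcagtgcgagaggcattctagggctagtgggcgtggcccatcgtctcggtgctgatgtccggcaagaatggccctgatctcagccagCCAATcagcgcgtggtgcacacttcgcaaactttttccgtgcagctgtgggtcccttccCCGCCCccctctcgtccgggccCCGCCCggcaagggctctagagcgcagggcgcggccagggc
Col7a1 (chr9:108953336-108953585, plus strand): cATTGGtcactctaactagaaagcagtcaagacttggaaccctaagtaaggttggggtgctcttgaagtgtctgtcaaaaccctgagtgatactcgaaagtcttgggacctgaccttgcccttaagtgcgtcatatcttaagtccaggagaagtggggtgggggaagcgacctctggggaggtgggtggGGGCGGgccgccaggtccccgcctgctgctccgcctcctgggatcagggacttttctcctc
Col3a1 (chr1:45311288-45311537, plus strand): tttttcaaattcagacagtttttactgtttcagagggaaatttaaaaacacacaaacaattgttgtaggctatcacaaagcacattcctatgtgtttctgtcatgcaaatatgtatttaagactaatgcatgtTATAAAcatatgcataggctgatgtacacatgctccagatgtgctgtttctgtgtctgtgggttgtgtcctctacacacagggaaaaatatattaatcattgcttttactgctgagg
Matches were counted anywhere in the 250 bases, with no rule on their distance from the start, so they are not shown to act as promoter elements. Col5a3 and Col7a1 each held a CCAAT match and at least 1 GC box match and no TATA match. Col3a1 held a TATA match and neither of the others, at 35.2% G and C bases against 62.8% in Col5a3 and 56.4% in Col7a1. Of the 19 tested collagen genes with such a window, 47.4% held a CCAAT match, 68.4% a GC box match and 10.5% a TATA match. Over all 9644 tested genes with a window the shares were 41.2%, 65.3% and 7.73%.

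The type IV genes are arranged in head-to-head pairs, and those of the abundant pair were not called. Col4a1 starts at 11312826 on the minus strand of chromosome 8 and Col4a2 at 11312805 on the plus strand, so the annotated genes overlap by 22 bases at their starts. Col4a1 had 455, 485 and 383 CPM in the knockout libraries and 374, 496 and 423 CPM in the controls. Col4a2 had 269, 279 and 227 CPM in the knockout libraries and 229, 310 and 277 CPM in the controls. Within each group library 2 was the highest for both genes. Their log2 ratios were close in each pair, 0.28 and 0.23 in pair 1, -0.03 and -0.15 in pair 2, and -0.14 and -0.29 in pair 3. The per-length ratio of Col4a2 to Col4a1 was 0.665, 0.650 and 0.669 in the knockout libraries, against 0.689, 0.704 and 0.739 in the controls. The knockout ratios lay below the control ratios in all libraries, by 0.10 on the log2 scale, with an exact two-sided permutation p of 0.1 (0.375 adjusted over the 5 chain ratios), the smallest that 3 against 3 can give.

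Col4a5, the chain mutated in X-linked Alport syndrome in people, had 11.7, 13.1 and 15.3 CPM in the knockout libraries, against 14.0, 15.8 and 17.9 CPM in the controls. It was lower in the knockout in every pair, by nearly the same amount (log2 ratios -0.25, -0.27 and -0.22), with overlapping groups and an adjusted p of 0.236 in the paired edgeR test. Its neighbour Col4a6 starts 1308 bases away on the other strand and held between 6 and 9 counts in each library.

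Type VI collagen forms beaded filaments around cells from chains encoded by Col6a1, Col6a2 and Col6a3. Col6a1 was nearly level between the groups, at 57.5, 47.0 and 43.9 CPM in the knockout libraries and 46.1, 48.9 and 46.0 CPM in the controls. Col6a2 had 29.6, 15.3 and 19.6 CPM in the knockout libraries, against 13.8, 15.9 and 15.9 CPM in the controls, so knockout library 1 stood apart. Col6a3 had 129, 94.4 and 72.6 CPM in the knockout libraries, against 91.8, 78.4 and 69.5 CPM in the controls. Neither was called, with adjusted p-values of 0.218 for Col6a2 and 0.139 for Col6a3 in the paired edgeR test. Relative to Col6a1, the per-length level of Col6a2 was 0.271, 0.171 and 0.235 in the knockout libraries, against 0.158, 0.171 and 0.181 in the controls. That ratio differed between the groups by 0.38 on the log2 scale (exact two-sided permutation p = 0.3), and the ratio of Col6a3 to Col6a1 by 0.21 (exact two-sided permutation p = 0.2). Col5a2 against Col5a1 differed by -0.19 and Col1a2 against Col1a1 by -0.10 (exact two-sided permutation p = 0.3 and 0.6).

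Of the FACIT genes, Col9a3 and Col16a1 were the most abundant. Col9a3, a type IX chain found on cartilage fibrils, had 16.7, 24.6 and 20.9 CPM in the knockout libraries, against 16.9, 17.2 and 11.1 CPM in the controls. It was level in pair 1 and higher in the knockout in pairs 2 and 3 (log2 ratios -0.02, 0.52 and 0.91). The adjusted p was 0.149 in the paired edgeR test and 0.479 without pairing. Without pair 1 the paired test gave 0.000336, in a fit that called 507 genes higher, against 187 with all pairs. Its type IX partners Col9a1 and Col9a2 held 1 and 2 counts in all libraries together. Col16a1, which lies at fibril and cell surfaces, averaged 54.6 ± 8.87 CPM in knockout and 53.1 ± 2.25 CPM in control libraries (SD, n = 3 each). Col12a1, a chain of dense connective tissue, had 10.4, 8.21 and 3.57 CPM in the knockout libraries and 9.24, 8.32 and 3.98 CPM in the controls. Library 3 was the lowest in both groups, and the groups overlapped. Col20a1 held 76 counts in all libraries together and shares 1.54% of its exonic bases with BX649560.1, a same-strand gene with 419 counts, so its level is uncertain.

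Col8a1, a short-chain network collagen of vessel walls and the eye, had 70.7, 63.6 and 52.5 CPM in the knockout libraries and 65.5, 74.8 and 52.6 CPM in the controls. The groups overlapped, and its change was -0.04 ± 0.09 in the paired edgeR test (adjusted p = 0.856).

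Read pair by pair, 16 of the 24 collagen genes moved in mixed directions, as did 7634 of all 13044 tested genes. Of the 24, 5 were higher in the knockout in all 3 pairs and 3 were lower, beside 19.9% and 21.6% of all tested genes (41.5% in 1 direction). Together these were no larger a share than among all tested genes. The 5 were Col2a1, Col5a3, Col6a3, Col7a1 and Col18a1, and the 3 were Col1a2, Col3a1 and Col4a5. Pair 1 differed from the others. In pair 1, 18 of the 24 genes (75%) were higher in the knockout, with a median log2 ratio of 0.27, beside 50.1% of all tested genes. In pair 2 the share was 41.7% with a median of -0.05, beside 49.4%, and in pair 3 it was 33.3% with a median of -0.03, beside 47.9%. Interferon-response genes also set pair 1 apart. The 12 listed genes had a median log2 ratio of -0.82 in pair 1, 2.03 in pair 2 and 2.71 in pair 3, and summed to 172, 644 and 602 CPM in the knockout libraries and 245, 176 and 105 CPM in the controls. The part of the interferon response in the collagen differences was not tested.

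**Figure D4:**
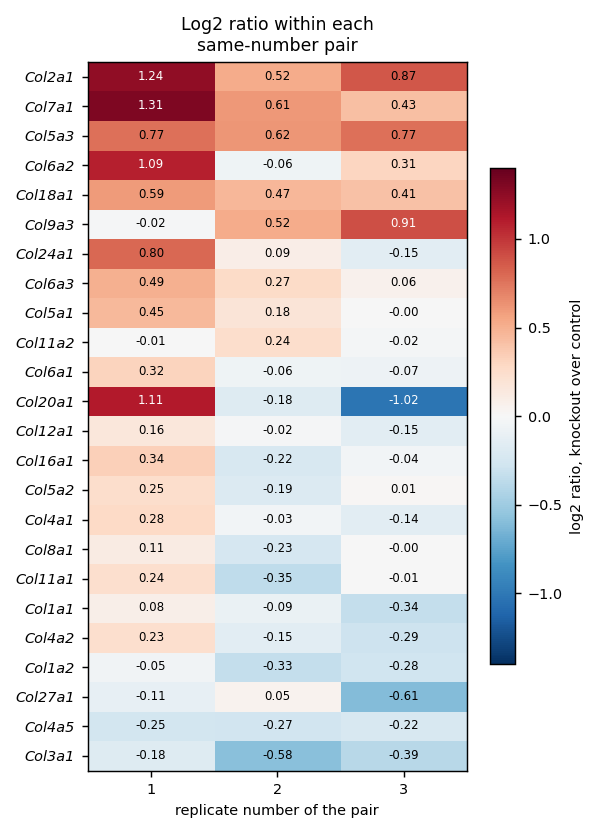
Log2 ratio of knockout to control within each pair of libraries with the same replicate number (columns) for the 24 tested collagen chain genes (rows), red where the knockout was higher and blue where it was lower. In pair 1, 18 of the 24 genes are above 0, against 10 in pair 2 and 8 in pair 3.

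A feature that the choice by symbol did not use is a match to the miR-29 family. These microRNAs are known repressors of collagen transcripts in mammals, and were not measured here. The family members share a seed, bases 2 to 8, shown in capitals in the RefSeq mature sequences, and pair with TGGTGCT in a transcript.
mmu-miR-29a-3p: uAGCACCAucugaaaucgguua
mmu-miR-29b-3p: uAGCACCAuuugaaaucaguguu
mmu-miR-29c-3p: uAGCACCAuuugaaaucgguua
In the stretch after the stop codon of the longest coding transcript (GENCODE M21), 17 of the 24 tested collagen genes held TGGTGCT (70.8%), beside 16% of the 11696 tested genes with such a stretch. The stretches were of like length, with a median of 1032 bases in the tested collagens and 1187 bases in all tested genes. Over all 44 collagen genes the share was 56.8%. Of the genes with a match, members at both ends of the range of change are shown, with Col4a1 and Col1a1 between. The match nearest the stop codon is given 5′ to 3′ as DNA, with the seed match in capitals and its neighbours in lower case.
Col7a1: ctgctgtgctccattTGGTGCTa
Col5a3: cccacatgggctcctTGGTGCTg
Col2a1: gcgtgtcctacacaaTGGTGCTa
Col4a1: gccaccgtcacaacaTGGTGCTa
Col3a1: ttcaaaatgtctcaaTGGTGCTa
Col1a1: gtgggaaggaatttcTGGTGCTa
Genes with the highest and the lowest change carried matches: Col5a3 held 3, Col7a1 held 2, and Col2a1, Col3a1, Col4a1 and Col1a1 held 1 each. The 7 tested genes without a match were Col1a2, Col6a1, Col9a3, Col11a2, Col12a1, Col18a1 and Col20a1. The 17 genes with a match had a median log2 change of 0.04, between -0.36 and 1.01, and the 7 without one had a median of 0.07, between -0.19 and 0.49 (edgeR, without pairing). The ranges overlapped.

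Before fibrils form, collagen chains are hydroxylated, folded, exported, trimmed and crosslinked, and the finished matrix is bound by receptors and broken down by proteases. Of 77 genes listed for these steps, 58 were tested. In the paired test 3 were higher and 1 was lower, against the background of 1.43% and 0.851%. The test without pairing, which was the planned one, called 0 of them, and so did the paired test without pair 3. The median log2 change without pairing was 0.01.

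The called genes encode proteins that act outside the cell. In the paired test, 1 of 5 crosslinking genes rose and 0 fell. This was Loxl4, a lysyl oxidase that joins collagen chains, at 44.3, 59.4 and 62.6 CPM in the knockout libraries against 28.9, 46.4 and 44.0 CPM in the controls, a change of 0.49 ± 0.09 (adjusted p = 0.0333 in the paired edgeR test and 0.436 without pairing). Lox, the founding member of that family and named after its values were seen, had 130, 82.3 and 54.8 CPM in the knockout libraries, against 83.7, 75.2 and 37.9 CPM in the controls. It was higher in each pair but with overlapping groups (adjusted p = 0.0609 in the paired edgeR test and 0.747 without pairing). Of 14 fibril partners, 9 were tested, of which 1 rose and 1 fell in the paired test. Tnxb, which encodes the fibril-binding tenascin-X, rose to 9.14, 9.77 and 7.86 CPM in the knockout libraries, against 4.87, 5.75 and 4.37 CPM in the controls (log2 change 0.84 ± 0.14, adjusted p = 0.0257 in the paired edgeR test and 0.189 without pairing). Postn, which encodes periostin, fell to 0.661, 0.555 and 0.110 CPM in the knockout libraries, against 2.60, 1.51 and 0.336 CPM in the controls (log2 change -1.71 ± 0.33, adjusted p = 0.0363 in the paired edgeR test and 0.441 without pairing), and its call was lost with DESeq2 and when any pair was left out. Tnxb groups did not overlap, while those of Loxl4 and Postn did.

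Of 9 genes of collagen breakdown 4 were tested, and 1 rose in the paired test: Mmp2, a gelatinase that digests denatured collagen and type IV collagen, had 113, 86.1 and 71.4 CPM in the knockout libraries, against 67.3, 61.2 and 56.1 CPM in the controls (log2 change 0.53 ± 0.09, adjusted p = 0.0289 in the paired edgeR test and 0.308 without pairing). The groups did not overlap.

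No gene was called among the 14 tested prolyl and lysyl modification genes, the 14 folding and secretion genes, the 4 tested propeptide-processing genes or the 8 tested receptors. The gene with the smallest unadjusted p without pairing in each list, given with its paired edgeR values, was P3h3, a prolyl 3-hydroxylase gene (log2 change -0.41 ± 0.10, adjusted p = 0.0695), Fkbp10, a collagen chaperone gene (0.29 ± 0.07, adjusted p = 0.0709), Pcolce2, an enhancer of propeptide removal (0.16 ± 0.07, adjusted p = 0.254) and Adgrg1, an adhesion receptor gene whose product binds type III collagen (0.81 ± 0.30, adjusted p = 0.186). In edgeR without pairing their adjusted p-values were 0.345, 0.526, 0.684 and 0.420, in the same order.

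**Figure D5:**
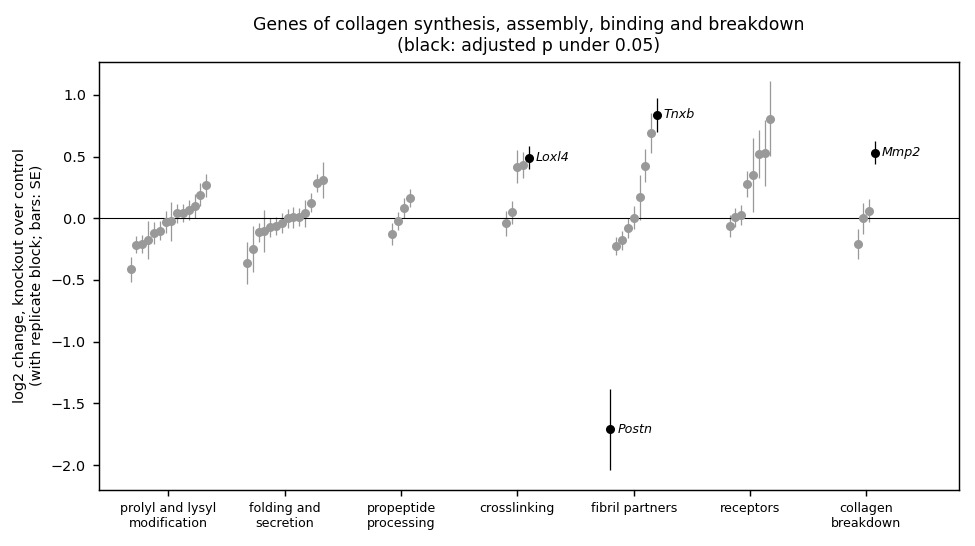
Log2 change of knockout over control with its SE (vertical axis, paired edgeR test) for the 58 tested genes of collagen modification, folding and secretion, propeptide processing, crosslinking, fibril partnership, reception and breakdown. Loxl4, Tnxb and Mmp2 (black, above 0) and Postn (black, below 0) pass an adjusted p of 0.05 in this test and not in edgeR without pairing.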

How the data were processed

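RNA from 3 knockout and 3 control libraries was sequenced, and reads were mapped and summarised by the authors with STAR and featureCounts on mm10, with DESeq also named, per the submitters' processing notes. The deposited values are raw counts per gene. Neither the settings nor the strand handling was found (not given in the sources used here). Counts were tested as deposited with edgeR 4.0.16 in R 4.3.3 (quasi-likelihood, TMM scaling, filterByExpr, Benjamini-Hochberg over 13044 of 55471 genes, adjusted p under 0.05). The filter removed at most 0.127% of a library's counts. Library totals lay between 17749533 and 18272622 counts, and floors of 3 counts cover counting error only. CPM were TMM-scaled. RPKM used exonic lengths from GENCODE M21 (GRCm38). For chain ratios the test was an exact permutation test, two-sided.

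The test without a replicate block was the planned one, and the fit with the block its main variation. Deviations of same-numbered libraries from their group means correlated at 0.15, 0.46 and 0.38, and those of other pairs between -0.45 and 0.05. The replicate numbers were therefore taken to pair the libraries, a hint from the data and not a statement in the labels. Other alternatives were DESeq2 1.42.0, limma-voom 3.58.1, other filters, scaling and gene lengths, and each library or pair left out. The tests were also run on simulated data. Pair differences were built into those data, so they could not show whether the replicate numbers truly pair the libraries. The collagen genes and the other lists were chosen with earlier results of these data known.

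Genes given in full were those called with or without the block, the up to 3 per class with the smallest unadjusted p without the block, the 2 per class with the highest RPKM and their partner chains. From the lists of collagen pathway steps, called genes or, with none, the gene with the smallest unadjusted p were named. Lox was named beyond this rule. Marker and interferon-response genes were not named by this rule.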

Additional observations from a re-analysis of the deposited data

How the results depend on the processing

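The counts of calls depended on the pairing, the tool and the low-count filter. Without the replicate block, edgeR called 0 genes higher and 0 lower, 0 collagen genes and 0 pathway genes. With the replicate block it called 187 genes higher and 111 lower, 2 collagen genes higher, and 3 pathway genes higher and 1 lower. DESeq2 without pairing called 93 genes higher and 40 lower, with 2 collagen genes and 1 pathway gene, Tnxb, higher. With no filter on low counts, 62 genes were higher and 12 lower, with 1 collagen gene higher. Without pairing, limma-voom, and edgeR with DESeq2 size factors or a minimum mean of 5 CPM, called 0 genes in either direction. With 1 library left out, 0 to 30 genes were higher and 0 to 1 lower, the highest counts being without knockout library 1. With 1 pair left out of the paired test, 0 to 507 genes were higher and 0 to 207 lower, 0 to 3 collagen genes higher and 0 to 1 lower, and 0 to 6 pathway genes higher and 0 lower (0 to 0). Without pair 3, all these counts were 0. The count of 507 was without pair 1, which also added Col9a3 (higher) and Col3a1 (lower), and without pair 2 it was Col6a2 that was added. DESeq2 with pairing called 1 collagen gene lower, Col3a1, and 0 pathway genes lower, as did a minimum mean of 5 CPM with pairing for the pathway genes. At that minimum, 5 collagen genes could not be tested.

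Some changes that were not called turned their sign. Leaving out 1 library without pairing gave log2 ranges of -0.28 to 0.37 for Col12a1, -0.0909 to 0.14 for Col16a1, -0.21 to 0.59 for Col20a1, -0.0605 to 0.15 for Col4a1, -0.19 to 0.0386 for Col4a2, -0.23 to 0.16 for Col11a1, -0.21 to 0.36 for Col11a2, -0.56 to 0.27 for Col1a1, -0.64 to 0.0287 for Col27a1, -0.14 to 0.13 for Col5a2, -0.0418 to 0.15 for Col6a1 and -0.17 to 0.0830 for Col8a1, and of -0.24 to 0.0582 for the ratio of Col1a2 to Col1a1. With limma-voom Col12a1 was at -0.0050 and Col20a1 at -0.0436, and with paired DESeq2 Col20a1 was at -0.0388. Leaving out 1 pair gave -0.0721 to 0.0649 for Col12a1, -0.13 to 0.17 for Col16a1, -0.0878 to 0.11 for Col4a1, -0.22 to 0.0296 for Col4a2, -0.20 to 0.14 for Col11a1, -0.0191 to 0.51 for Col24a1, -0.0913 to 0.15 for Col5a2, -0.0628 to 0.14 for Col6a1 and -0.12 to 0.0703 for Col8a1. Col5a3, Col7a1, Col18a1, Col2a1 and Col3a1 kept their direction under every alternative that gave them a value. The cause of these changes was not tested, and genes under 1 CPM are limited by depth.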
